A study of Homo sapiens with 2 samples.

Results

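Divergent promoters are stretches of DNA that lie between 2 protein-coding genes read away from each other, one on the minus strand and one on the plus strand. The pairs described here had both canonical transcription start sites under 1 LSD1 peak in PC-3M-luc cells, with the minus-strand start site 0 to 1000 bp below the plus-strand one on hg19. Of 974 such gene pairs in the annotation, 896 (92%, exact 95% binomial interval 90.1 to 93.6) met this rule, and are called member pairs. They lay in 829 of the 20110 peaks (4.12%) and involved 1725 genes. Pairs that shared a gene, or a start site with a readthrough transcript, were common enough that the 974 pairs came from 904 loci, of which 830 (91.8%) held a member. A single start site in one of the 829 peaks may thus belong to more than 1 pair, and 64 peaks held more than 1 pair.

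LSD1 (KDM1A) takes mono- and dimethyl marks off lysine 4 of histone H3 and acts within corepressor complexes such as CoREST and NuRD. Chromatin immunoprecipitation with sequencing (ChIP-seq) was done with an Abcam antibody against LSD1 in PC-3M-luc, a luciferase-marked line of the metastatic PC-3M variant of PC-3, an androgen-independent human prostate carcinoma line. The cells carried the genotype label Control, were at passages 17 to 20 and grew in minimal essential medium with 10% serum. The data comprised 1 LSD1 library and 1 input library, both labelled biological replicate 1, and the authors deposited 1 list of peaks with a score each, taken here as LSD1 called against that input. The sources used here give no read depth for the peaks. Each arm had 1 library, so there is no replicate check and no p-value. Intervals on shares are exact binomial and those on medians use order statistics, both at 95%, and they cover counting error only. The 2 genes of a pair share 1 stretch of DNA and 1 peak, so they are not independent observations.

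Divergent arrangement is frequent among genes that most cells use, including those for DNA repair, mitochondrial proteins and histones. Such intergenic stretches are usually rich in CpG, lack a TATA box and serve as a promoter in both directions, with the paired histone genes H2A and H2B a well-known TATA-containing exception. Many mammalian promoters of a single coding gene are also transcribed in the opposite direction, into a long noncoding RNA (lncRNA) or an unstable transcript.

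The sequence between the 2 start sites shows how much these stretches differ. Capitals mark the recognition letters of the elements searched: CCGGAAG for ETS factors, GGGCGG for the SP/KLF family, CCAAT for NFY, TATAAA for the TATA box, TGACGTCA for cyclic AMP response factors (CRE), CACGTG for the E-box, and TTTGGCGC, TTTCCCGC, TTTGCCGC or TTTCGCGC for E2F, each on either strand, besides the longer NRF1 and YY1 elements. Where 2 elements overlap, the capitals cover both. The stretches run from the base after the minus-strand start site to the base before the plus-strand one, 5′ to 3′ on the plus strand of GRCh37 (hg19), so the minus gene is read leftward from the first base and the plus gene rightward from the last. They were picked, after their values were seen, among gaps that touch no annotated exon of any transcript. Of the 896 member gaps, 799 touch one. The first 4 are histone pairs, shown because 3 of them were members with scores from 116.97 to 3100 and H2AC1/H2BC1 had no peak.
H2BC21/H2AC20 gap, chr1:149858233-149858467: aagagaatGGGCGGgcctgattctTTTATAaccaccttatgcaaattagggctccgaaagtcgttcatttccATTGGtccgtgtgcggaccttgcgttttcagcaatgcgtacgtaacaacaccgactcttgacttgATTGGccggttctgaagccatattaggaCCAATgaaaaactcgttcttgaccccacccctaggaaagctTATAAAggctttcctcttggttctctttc
H2BC12/H2AC12 gap, chr6:27114635-27114884: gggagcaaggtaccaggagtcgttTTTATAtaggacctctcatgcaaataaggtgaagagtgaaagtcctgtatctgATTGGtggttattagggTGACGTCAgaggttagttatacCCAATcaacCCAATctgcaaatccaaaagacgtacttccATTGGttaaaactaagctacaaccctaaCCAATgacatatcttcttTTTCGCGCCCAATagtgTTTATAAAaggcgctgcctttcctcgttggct
H2AC14/H2BC14 gap, chr6:27782556-27782799: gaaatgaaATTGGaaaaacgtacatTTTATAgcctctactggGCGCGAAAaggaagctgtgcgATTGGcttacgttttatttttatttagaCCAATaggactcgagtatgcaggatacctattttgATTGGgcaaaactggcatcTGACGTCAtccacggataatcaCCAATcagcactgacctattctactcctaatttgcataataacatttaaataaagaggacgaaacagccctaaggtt
H2AC1/H2BC1 gap, chr6:25726791-25727004: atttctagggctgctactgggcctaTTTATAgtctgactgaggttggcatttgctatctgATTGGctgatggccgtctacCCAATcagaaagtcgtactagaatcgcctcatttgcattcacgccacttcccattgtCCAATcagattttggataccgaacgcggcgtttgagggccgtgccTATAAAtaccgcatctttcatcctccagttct
These 4 gaps all held TATA boxes and CCAAT elements, with and without a peak. The next 6 are member gaps of genes for translation, respiration and DNA repair.
MED22/RPL7A gap, chr9:136214987-136215072: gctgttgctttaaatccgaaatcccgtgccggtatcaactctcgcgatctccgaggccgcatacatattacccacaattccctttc
KARS1/TERF2IP gap, chr16:75681564-75681670: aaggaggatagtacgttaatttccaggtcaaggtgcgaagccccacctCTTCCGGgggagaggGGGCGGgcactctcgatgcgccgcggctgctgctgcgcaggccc
SKA3/MRPL57 gap, chr13:21750692-21750796: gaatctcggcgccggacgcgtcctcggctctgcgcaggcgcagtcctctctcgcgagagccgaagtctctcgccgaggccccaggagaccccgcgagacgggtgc
SARS2/MRPS12 gap, chr19:39421404-39421583: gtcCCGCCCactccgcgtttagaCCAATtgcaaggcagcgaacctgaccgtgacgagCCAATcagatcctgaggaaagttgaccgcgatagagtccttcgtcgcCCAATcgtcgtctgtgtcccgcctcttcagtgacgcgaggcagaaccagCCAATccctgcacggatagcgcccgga
LRRC41/UQCRH gap, chr1:46769289-46769369: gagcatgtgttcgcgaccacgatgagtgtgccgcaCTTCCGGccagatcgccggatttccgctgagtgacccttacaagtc
XPO5/POLH gap, chr6:43543776-43543921: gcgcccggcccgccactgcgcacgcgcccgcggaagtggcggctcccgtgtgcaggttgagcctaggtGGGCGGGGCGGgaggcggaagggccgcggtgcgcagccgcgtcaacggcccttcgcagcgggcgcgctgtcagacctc
None of these 6 held TATAAA. The MED22/RPL7A and SKA3/MRPL57 gaps held none of the 9 elements, and the SARS2/MRPS12 gap held 4 CCAAT elements. The last gaps belong to pairs with no peak, 1 of genes for the thyroid oxidase DUOX2 and its maturation factor and 1 of the ovarian transcription factor gene FOXL2 and its neighbour.
DUOX2/DUOXA2 gap, chr15:45406371-45406523: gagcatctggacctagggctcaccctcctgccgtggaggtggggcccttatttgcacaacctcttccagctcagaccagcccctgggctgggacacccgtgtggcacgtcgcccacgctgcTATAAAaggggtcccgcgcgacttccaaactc
FOXL2/FOXL2NB gap, chr3:138665980-138666058: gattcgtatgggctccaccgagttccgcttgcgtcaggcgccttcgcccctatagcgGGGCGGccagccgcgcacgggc
The DUOX2/DUOXA2 gap held a TATA box and the FOXL2/FOXL2NB gap a GGGCGG element. A match describes the letters and is not a bound site.

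LSD1 peaks covered the start sites of divergent pairs more often than other start sites of the same CpG class. Over all 19881 canonical start sites of protein-coding genes the covered share was 54.2%. Of the 1877 start sites in divergent pairs, 1754 (93.4%, interval 92.2 to 94.5) lay under a peak, against 50.1% of the 18004 in no such pair. The 2 shares are not measured alike. A peak that belongs to 1 gene of a pair also covers a close partner, so a paired start site has 2 ways to be covered. The peak list does not tell which gene a peak belongs to. The 1877 start sites came from 904 loci, and their intervals, which treat them as independent, are too narrow. A start site was called CpG-rich when the surrounding 1000 bp had a GC content over 55% and an observed-to-expected CpG ratio over 0.65. Among CpG-rich start sites the shares were 96.2% (interval 95.1 to 97.2, 1407 of 1462) in pairs and 72.8% in no pair. Among CpG-poor start sites they were 83.6% (interval 79.7 to 87.0, 347 of 415) and 23.1%. The gap was wider there, but the CpG-poor sites of the 2 groups differed in CpG ratio. Ratios under 0.2 occurred at 13 start sites in pairs and at 2069 with no partner, and ratios of 0.2 to 0.4 at 27 and 2701. The CpG-poor shares are thus not compared at equal CpG ratio. Within classes of the ratio, 80.4% of start sites in pairs and 28.7% with no partner were covered from 0.4 to 0.6. The shares were 93.8% and 64.8% from 0.6 to 0.8, and 97.9% and 74.0% above 0.8. From 0.2 to 0.4 they were 29.6% and 8.85%. Pairs with 2 CpG-rich start sites were members in 658 of 689 cases (95.5%), those with 1 in 127 of 141 (90.1%) and those with none in 111 of 144 (77.1%).

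Start sites that face a lncRNA instead of a coding gene stood between the 2 groups. Such a partner was defined, after the data were seen, as the canonical start site of a lncRNA head-to-head within the same 1000 bp. Of CpG-rich start sites, 82.9% (interval 80.9 to 84.7) with a lncRNA partner and 70.9% with no partner at all lay under a peak. Of CpG-poor ones the shares were 55.2% (interval 49.6 to 60.6) and 21.5%. The same order held in 5 classes of the CpG ratio. From 0.4 to 0.6 the covered share was 80.4% in coding pairs, 45.2% with a lncRNA partner and 28.7% with none, and above 0.8 it was 97.9%, 84.5% and 74.0%. Below 0.4 few start sites lay in pairs and the intervals of pairs and lncRNA-partnered sites overlapped. From 0.2 to 0.4 the shares were 29.6%, 19.1% and 8.85%, and under 0.2 only 3 of 13 paired start sites had a peak.

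**Figure D1:**
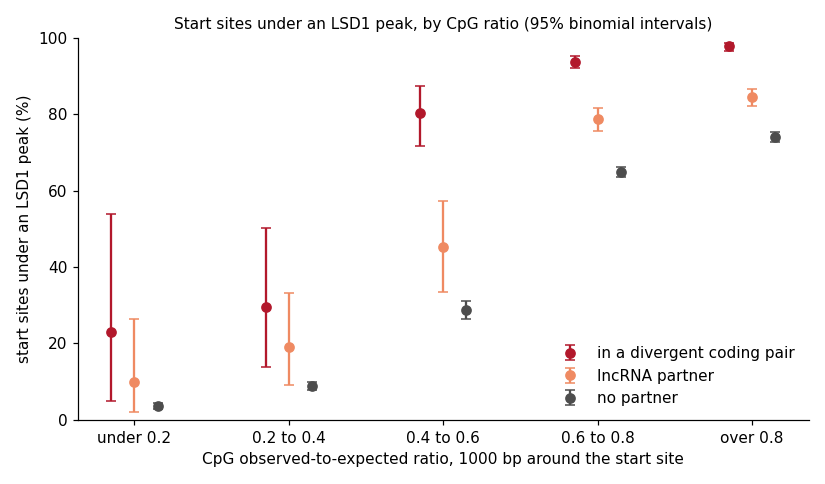
Share of canonical start sites under an LSD1 peak (vertical axis, %) in classes of the observed-to-expected CpG ratio of the surrounding 1000 bp (horizontal axis), for start sites in a divergent coding pair, with a lncRNA partner and with no partner. Points are shares and bars exact 95% binomial intervals; from 0.4 upward the 3 groups stand apart, at 80.4%, 45.2% and 28.7% in the class from 0.4 to 0.6.

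The share of pairs held by 1 peak was nearly level up to 500 bp and lower beyond it. The median distance between the start sites of member pairs was 233 bp, with a range of 11 to 1000 bp. The share of pairs that were members was 91.9% at 0 to 100 bp (171 of 186), 92.6% at 101 to 200 bp, 96.5% at 201 to 300 bp and 93.5% at 301 to 500 bp, with overlapping intervals. It was 89.7% at 501 to 750 bp and 75% (interval 62.6 to 85.0, 48 of 64) at 751 to 1000 bp. Outside the rule, 1 peak held both start sites in 65.7% of pairs at 1001 to 1500 bp, 34.1% at 1501 to 2000 bp and 6.44% at 2001 to 5000 bp. Where at least 1 of the 2 start sites had a peak, that peak held both in 100% of pairs up to 300 bp, in 97.8% at 301 to 500 bp and in 82.8% at 751 to 1000 bp. Peaks over 1 CpG-rich start site with no partner extended as far upstream as the distance of a pair in 94.4% of cases at 301 to 500 bp and in 42.3% at 751 to 1000 bp. For those with a lncRNA partner the shares were 97.5% and 62.8%. Up to 300 bp a peak of ordinary reach therefore holds both start sites in nearly every case, and joint coverage at those distances is the same measurement as coverage of 1 site.

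**Figure D2:**
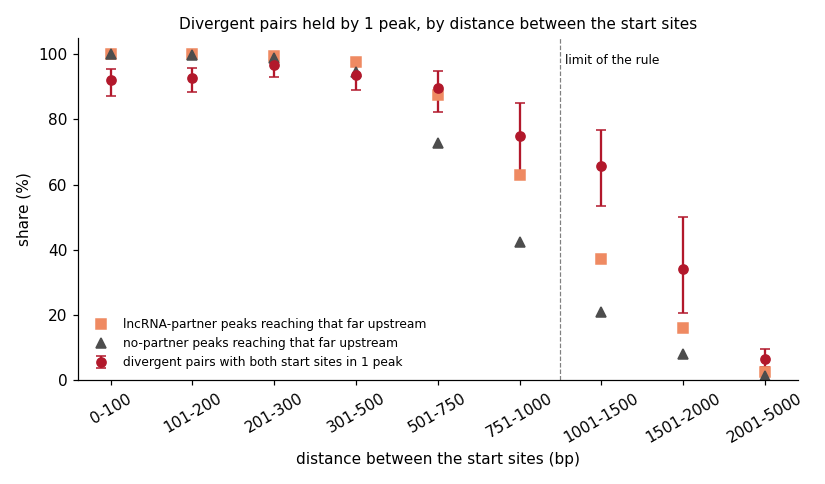
Share of divergent pairs with both start sites in 1 peak (circles, with exact 95% binomial intervals) by the distance between the start sites in bp, beside the share of CpG-rich peaks over 1 start site that reach as far upstream (squares, lncRNA partner; triangles, no partner). Pairs without any peak count in the first share but not in the other series; the dashed line marks the limit of the rule, and at 751 to 1000 bp the values are 75%, 62.8% and 42.3%.

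The pairs nearest to the limit did not stand apart. HNRNPA2B1/CBX3, genes of an RNA-binding protein and of heterochromatin protein HP1 gamma, had start sites 999 bp apart in a peak of score 2459.69. ATP6V1G2/NFKBIL1 was 1000 bp apart (score 391.47), SMIM7/TMEM38A 995 bp (1544.47), CASKIN2/TSEN54 991 bp (493.16) and UBQLN4/LAMTOR2 984 bp. Just outside, ABHD14B/ABHD14A at 1015 bp and HNRNPUL2/TTC9C at 1029 bp each lay in 1 peak (scores 1686.86 and 1560.88), and USH1G/OTOP2 at 1018 bp had none. At the other end, NUDT1, a gene for an enzyme that removes oxidised nucleotides, formed 2 pairs at 11 and 21 bp, CIR1/SCRN3 lay 18 bp apart, and HIGD2B/BBS4 and TSGA10/LIPT1 25 bp.

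The 78 pairs that were not members mostly lacked any peak. In 55 pairs neither start site was covered, and the nearest peak lay at a median of 38870 bp, from 1435 to 3009849 bp. In 16 pairs 1 start site was covered, and in 7 the start sites lay in 2 separate peaks, among them NPC2/ISCA2, APBA3/MRPL54, TRAPPC6A/BLOC1S3, LMF2/NCAPH2, KCTD9/CDCA2 and the histone pair H3C7/H2BC9. The pairs without a peak included genes of restricted expression: DUOX2/DUOXA2 and DUOXA1/DUOX1 of thyroid hydrogen peroxide synthesis, ABCG5/ABCG8 of intestinal and hepatic sterol export, CRYAB/HSPB2 of muscle and lens small heat shock proteins, the olfactory receptor pair OR11A1/OR2H1, the cancer-testis genes MAGEA12/CSAG1, and PLCZ1/CAPZA3 and SMC1B/RIBC2, whose products act in sperm or in meiosis. Genes of general function were among them too, such as XRCC3/ZFYVE21, XRCC1/PINLYP (XRCC3 and XRCC1 act in DNA repair) and DHX57/MORN2. These names were chosen after their values were seen. Expression in these cells was not analysed here. Against 92% on all chromosomes, 19 of 26 pairs on chromosome X were members (73.1%), 17 of 21 on chromosome 22 (81.0%), 6 of 7 on chromosome 21 (85.7%) and 61 of 71 on chromosome 19 (85.9%), while chromosomes 4, 13 and 18 had all pairs as members. A shortage of uniquely mappable sequence touched few pairs: 4 of the 78 and 0 of the 896 members had under 50% of 32-base words unique in the reference around the pair. An uncovered start site is one without a deposited peak, and binding below the authors' threshold cannot be seen there.

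Over all widths member peaks scored above peaks over 1 start site with no partner, while their interval overlapped that of peaks over 1 start site with a lncRNA partner. The score is the authors' own value per peak, used here to describe and rank within this list. The median was 589.58 (interval 549.71 to 625.11, range 51.91 to 3100) in the 829 member peaks and 205.87 over all peaks. Among peaks that held the canonical start site of exactly 1 gene in no pair it was 426.545 (interval 414.39 to 437.95, 8130 peaks). For CpG-rich ones it was 436.515 with no partner (interval 422.28 to 450.23) and 607.17 with a lncRNA partner (interval 572.77 to 643.96). Member peaks had a median width of 2115 bp (interval 2042 to 2184), against 1916 bp with no partner and 2163 bp with a lncRNA partner, and width is in part fixed by the rule, since a peak must span both start sites. Within classes of width the order varied. Up to 1500 bp the median score was 274.29 (interval 252.42 to 317.03) in member peaks, 195.66 (183.14 to 205.26) with no partner and 209.26 (168.08 to 226.54) with a lncRNA partner, so members were above both. From 1501 to 2000 bp it was 487.915, 411.26 and 467.42, and only the first pair had separate intervals. From 2001 bp the intervals of members and of peaks with no partner overlapped, with 821.78 against 724.7 from 2501 to 4000 bp. There the peaks with a lncRNA partner had the highest medians, 633.99 against the members' 590.21 from 2001 to 2500 bp, 874.835 against 821.78 from 2501 to 4000 bp and 1638.18 against 1480.07 above that, with overlapping intervals.

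The highest member score, 3100, was shared by 14 member peaks and by 206 peaks of the list, so it does not order them. Among them were FBXL6/SLC52A2, a pair of an F-box protein and a riboflavin transporter gene (hg19 chromosome 8, 145570106 to 145589116), POLR2L/TSPAN4, a pair of a shared RNA polymerase subunit and a tetraspanin gene (chromosome 11, 835805 to 847479), RPL12/LRSAM1, VPS52/RPS18 and NDUFA7/RPS28 with ribosomal protein genes, PPP1R10/MRPS18B with a mitochondrial ribosomal protein gene, STX10/IER2 with an immediate early gene, C11orf68/DRAP1 with a transcriptional corepressor gene, VPS9D1/ZNF276 and SPSB3/NUBP2. The lowest scores belonged to CYP39A1/SLC25A27, of an oxysterol hydroxylase and a mitochondrial carrier (51.91), PNMA2/DPYSL2 (65.78), the collagen pair COL4A1/COL4A2 (69.08), C12orf4/RAD51AP1 (69.6) and TAP1/PSMB9 of antigen processing (73.43). PNMA2/DPYSL2 also had the narrowest member peak, 656 bp, followed by EFL1/SAXO2 (763 bp), CCDC121/GPN1 (783 bp), PIAS2/KATNAL2 (803 bp) and ZNF571/ZNF540 (821 bp). Of the member peaks 91.1% (755 of 829) were at or above the median score of the whole list, against 78.6% of CpG-rich peaks over 1 start site.

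Member peaks were centred near the middle of the pair and reached past both start sites. The midpoint lay between the start sites in 314 of 896 pairs (35.0%), on the side of the minus gene in 35.8% and on that of the plus gene in 29.1%. It was within 250 bp of the pair's centre in 60.0% of pairs and within 500 bp in 82.6%. Of CpG-rich peaks over 1 start site, a similar 80.5% had the midpoint within 500 bp of that start site. Both start sites were at least 100 bp inside the peak in 888 pairs (99.1%). Reach is counted from the start site in the direction of the gene to the end of the peak, and the peak ended beyond the gene's far end on 60 of 1792 gene sides (3.35%). Peaks reached a median of 914.5 bp on the side of the minus gene and 833 bp on that of the plus gene, and 1113 bp on the longer side against 658.5 bp on the shorter. The median reach was 868.5 bp at distances of 0 to 100 bp, 871 bp at 101 to 200 bp, 874.5 bp at 301 to 500 bp and 817 bp at 501 to 750 bp, so peaks over pairs that lay farther apart ended at about the same distance past the start sites. Their median width went from 1914 bp in the first class to 2209 bp in the last of these. At 751 to 1000 bp, where the rule itself needs wide peaks, it was 2963 bp, with a reach of 953 bp. The longer side was more than 2 times the shorter in 266 pairs (29.7%). Peaks over 1 CpG-rich start site with no partner were lopsided, with a median of 1048 bp downstream and 790 bp upstream, and longer downstream in 66.4%. Those with a lncRNA partner had 1068.5 bp downstream and 1045 bp upstream and were longer downstream in 50.9%. Measured from each start site in turn, member peaks extended less far downstream than peaks over 1 CpG-rich start site with no partner. The CpG classes differ, since 337 of the 1725 member start sites were CpG-poor. Peaks over 1 CpG-poor start site in no pair reached a median of 866.5 bp downstream, and the part of this in the difference was not tested. The longer upstream reach of member peaks is in part fixed by the rule, since the partner's start site lies upstream and must be under the peak. At 1000 bp upstream 63.1% of member peaks still covered the position, against 53.4% with a lncRNA partner and 32.8% with none. At 1000 bp downstream the shares were 40%, 54.4% and 53.6%.

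**Figure D3:**
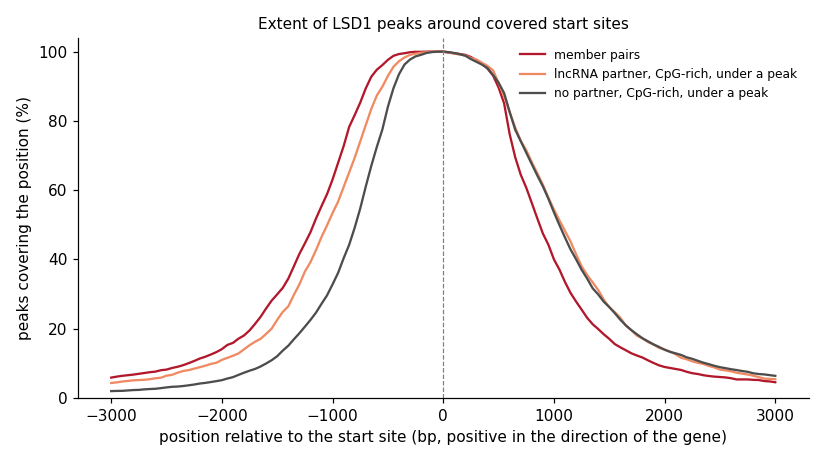
Share of peaks (vertical axis, %) that cover each position from 3000 bp upstream to 3000 bp downstream (horizontal axis, bp) around covered start sites of member pairs and of CpG-rich start sites with a lncRNA partner or with none. Lines are shares over start sites; upstream the member line lies outermost, at 63.1% against 53.4% and 32.8% at 1000 bp, where the rule itself needs reach, and downstream it lies innermost.

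Peaks over the ribosomal protein genes of member pairs extended farther on the side of the ribosomal gene than on the side of the partner, and many ran past the whole gene. Of 75 genes for cytosolic ribosomal proteins 13 lay in divergent pairs, and all 13 were in member pairs, with a median score of 2591.08. Among all 1877 genes in divergent pairs 1725 were in member pairs. In 12 of the 13 the reach past the start site was longer on the ribosomal side, with a median of 4972 bp against 1020 bp. At the genes with an annotated length of 5548 to 31972 bp the peak ended inside the gene. In the other 8 of the 13, of 2183 to 4437 bp, the peak ended beyond the far end of the annotated gene. Counted only as far as that end, the median was 3165 bp within the ribosomal gene against 1020 bp within the partner, again longer in 12 of 13. The peak over RPL12 and LRSAM1, a ubiquitin ligase gene, covered 3732 bp of RPL12 and 3682 bp beyond it, against 1554 bp of LRSAM1 (score 3100). At RPS18 it covered 4436 bp of the gene and 2918 bp beyond, against 1020 bp of VPS52, a gene for an endosome-to-Golgi tethering factor. At RPL18 it covered 3850 bp of the gene and 2137 bp beyond, against 515 bp of SPHK2, a sphingosine kinase gene. The peaks at RPS18 and RPL18 held 3 start sites each. RPL7/RDH10 was the exception, with 1755 bp on the side of RPL7 and 3106 bp on that of RDH10, a retinol dehydrogenase gene (score 3095.58). RPL7A/MED22 lay in a peak of 12682 bp that also held SURF1/SURF2, and it ran 7312 bp beyond RPL7A.

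Ribosomal protein genes outside divergent pairs had peaks of a like shape. At 55 of these, each the only gene with a canonical start site under its peak, the median reach was 2866 bp downstream and 854 bp upstream, and 51 were longer downstream. In 17 of the 55 the peak ended beyond the gene, and the median within the gene was 2369 bp. The pairs of the other lists with 1 listed gene are given side by side, with no test of the difference. The peak was longer on the listed gene's side in 13 of 23 pairs for mitochondrial ribosomal proteins, 10 of 20 for DNA repair, 8 of 24 for oxidative phosphorylation, 10 of 16 for the transcription machinery, 3 of 10 for replication, 5 of 8 for chaperones, 4 of 7 for the proteasome and 4 of 6 for tRNA synthetases. Without peaks that hold more than 2 start sites the ribosomal count was 8 of 9.

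**Figure D4:**
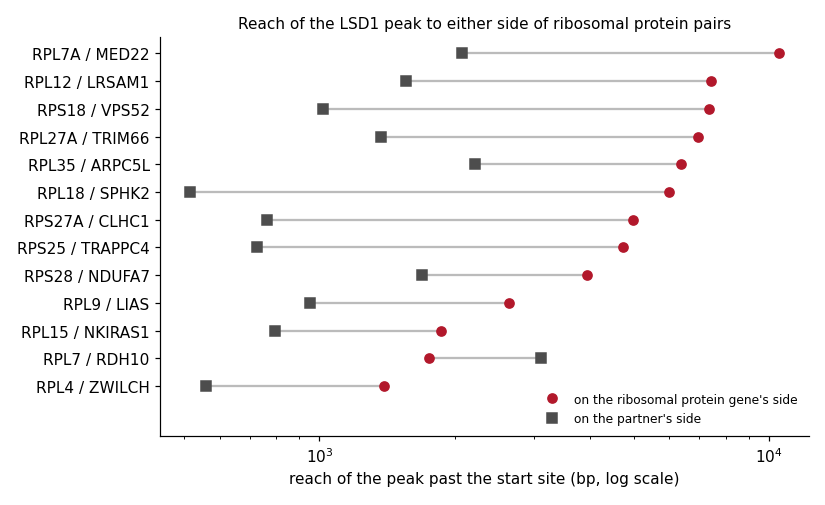
Reach of the LSD1 peak past the start site (horizontal axis, bp, log scale) on the side of the ribosomal protein gene (circles) and of its divergent partner (squares), 1 line per member pair, counted to the end of the peak even where it lies beyond the gene. The reach was longer on the ribosomal side in 12 of 13 pairs, and RPL7/RDH10 is the exception.

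The member peaks that leaned most were wide and often held further genes. Lean was ranked by the distance in bp from the pair's centre to the peak's midpoint. Only wide peaks can rank high on that measure, so their width is in part fixed by it. The widest, 35292 bp over RECQL4/LRRC14, of a DNA helicase and a leucine-rich repeat protein (score 2966.19), held 6 start sites. CCDC78/HAGHL followed with 20737 bp, FBXL6/SLC52A2 with 19011 bp, FOXA1/TTC6 with 14382 bp and TMEM276/KIFC2 with 13189 bp. FOXA1 encodes a pioneer factor of prostate epithelium, and its peak scored 2070.94. Towards the minus gene the strongest leans included RECQL4/LRRC14, PSMA7/SS18L1 (10655 bp on the side of PSMA7, a proteasome subunit gene, and 1273 bp on that of SS18L1), SURF1/SURF2 and TMEM276/KIFC2. Towards the plus gene they were at ATP5ME/MYL5 (1267 bp on the side of the ATP synthase gene ATP5ME and 9999 bp on that of MYL5), MED22/RPL7A, ACAP3/PUSL1, VPS52/RPS18 and STX10/IER2.

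Most housekeeping groups had a larger share of genes in divergent pairs than all genes, and their unpaired genes were mostly covered as well. Of all protein-coding genes with a canonical start site 9.44% were in a divergent pair and 8.68% in a member pair, and 50.1% of the genes in no pair were covered. Of the 1877 genes in any divergent pair 1725 were in member pairs, so a paired gene of any kind was nearly always in one. The counts of paired genes below are to be read beside that share. For oxidative phosphorylation 24 of 73 genes were in pairs and all 24 in member pairs (median score 656.675), and all 49 unpaired genes were also under a peak. For mitochondrial ribosomal proteins 25 of the 26 paired genes were in member pairs (742.32), and 50 of 51 unpaired ones were covered. DNA repair genes had 20 of 22 paired genes in member pairs (620.835) and 40 of 42 unpaired ones covered. The replication list had 10 of 11 and 31 of 36, with a median score of 385.405. All paired genes were in member pairs for the transcription machinery (16, median 786.08), the chaperones (12, median 1128.87), the tRNA synthetases (8, median 542.69) and the proteasome (7, median 498.79). Genes of LSD1 complexes had 2 of 27 in pairs, both in member pairs, among them RBBP4, a histone-binding subunit of NuRD, with ZBTB8OS (611.79). Zinc finger genes of chromosome 19 had 3 of 39 in pairs, all in member pairs, with a median score of 283.955, and 21 of their 36 unpaired genes (58.3%) were covered, near the share of all unpaired genes. The share in pairs is a property of the annotation and not of the peaks.

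Of the 10 divergent pairs of histone genes 8 were members, against 92% of all divergent pairs. Unpaired histone genes were covered at a share near that of all genes. Of 49 core histone genes 20 formed 10 divergent pairs. The 8 member pairs, each of an H2A and an H2B gene, scored 3100 at H2BC21/H2AC20, 1860.12 at H2BC4/H2AC6, 1402.03 at H2AC15/H2BC15, 1348.86 at H2AC17/H2BC17, 1242.03 at H2BC11/H2AC11, 1005.5 at H2BC12/H2AC12, 431.21 at H2BC13/H2AC13 and 116.97 at H2AC14/H2BC14. The 3 lowest of these also had the lowest shares of unique 32-base words, 79.4%, 53.6% and 66.3% in that order, against 84.7% to 97.7% in the other 5, and the part of this in the scores was not tested. The scores spanned nearly the range of all members, and the gaps of H2BC21/H2AC20, H2BC12/H2AC12 and H2AC14/H2BC14 are printed above. Of the 29 histone genes in no pair 15 (51.7%) were covered. The H2AC1/H2BC1 pair, known for expression in testis, had no peak.

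Pairs known from textbooks as bidirectional promoters were mostly members, with a wide range of scores. Of 19 such pairs 15 met the distance rule on the canonical start sites and 14 were members, near the 92% of all divergent pairs. SURF1/SURF2, the classic housekeeping pair, scored 2655.56. HSPD1/HSPE1, of the mitochondrial chaperonin, scored 1560.04, EMC8/COX4I1 1539.23, GART/SON 1537.22, SIRT3/PSMD13 1028.28 and PPAT/PAICS, of purine synthesis, 947.34. MCM7/AP4M1, with a replicative helicase gene, scored 775.53, NPAT/ATM 745.77, PRKDC/MCM4 560.57, TMEM258/FEN1 528.89 and SARS2/MRPS12 423.93. The tissue- and signal-dependent pairs TAP1/PSMB9 (73.43) and COL4A1/COL4A2 (69.08) were at the bottom. The 6 collagen IV genes, which encode basement membrane chains, had 4 in divergent pairs and 2 in a member pair. COL4A3/COL4A4, 419 bp apart, had no peak, and of COL4A5/COL4A6, 1416 bp apart, COL4A5 had a peak of score 132.49 and COL4A6 none. RANBP1/TRMT2A and UNG/ALKBH2 fell outside the distance rule on their canonical start sites.

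The start sites of member pairs held the ETS, CCAAT and E2F elements more often than CpG-rich start sites under a peak over 1 gene. Each window ran from 250 bp before to 50 bp after the start site, on hg19, and both strands were searched. The 2 windows of a pair can share sequence, so the intervals of the members are too narrow. At the median distance of 233 bp a member window also takes in the partner's start site. The shares of members and of start sites with no coding partner are thus not measured alike, and taking 1 start site per pair does not change that. With only the plus-strand start site of each pair, 2 of the 9 elements had separate intervals in place of 3, and the CCAAT difference was 4.33 points in place of 5.57. In windows of 100 bp around the start site 4 of the 9 elements had a higher share in members with separate intervals. The difference there was 6.29 points in place of 13.8 for ETS and 1.56 in place of 3.62 for E2F. CCGGAAG was found in 33.0% of the 1725 member windows, 19.2% of 6494 CpG-rich windows under a peak over 1 start site, 6.59% of 2382 CpG-rich windows with no partner and no peak, and 14.1% of all 19881. CCAAT was found in 40.8%, 35.2%, 27% and 36%, and the E2F letters in 8.87%, 5.25%, 4.11% and 4.37%. GGGCGG was less frequent in members, at 75.2% against 83.7% and 84.8%, and 61.4% of all windows. Over the 1388 CpG-rich windows of members alone the values were 33.2% for CCGGAAG, 39.5% for CCAAT, 9.08% for E2F and 80.3% for GGGCGG, each with an interval apart from that of CpG-rich windows under a peak over 1 start site. TATAAA was found in 3.54%, 3.70%, 5.54% and 9.62%. NRF1 (3.13%, 2.93%, 0.504% and 1.70% of all), YY1 (3.36%, 2.39%, 0.21% and 1.44% of all) and the E-box (11.8%, 11.1%, 8.40% and 8.76% of all) had overlapping intervals between members and peaks over 1 start site. CRE was found in 4.81%, 3.63%, 1.97% and 2.68%, with overlapping intervals in all members (3.85 to 5.93 against 3.19 to 4.12) and separate ones in CpG-rich members (5.26%, interval 4.14 to 6.57). Among CpG-poor start sites CCGGAAG stood at 32% in members and 22.3% under peaks over 1 start site. It stood at 21.5% in CpG-rich windows under a peak with a lncRNA partner. Divergent pairs that were not members held CCGGAAG in 17.1% of 152 windows (interval 11.5 to 24.1), below the members' interval of 30.8 to 35.3. They held CCAAT in 42.8% and E2F in 9.21%, close to the members' 40.8% and 8.87%, with wide intervals (34.8 to 51.0 and 5.13 to 14.97) that also overlap those of CpG-rich peaks over 1 start site.

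**Figure D5:**
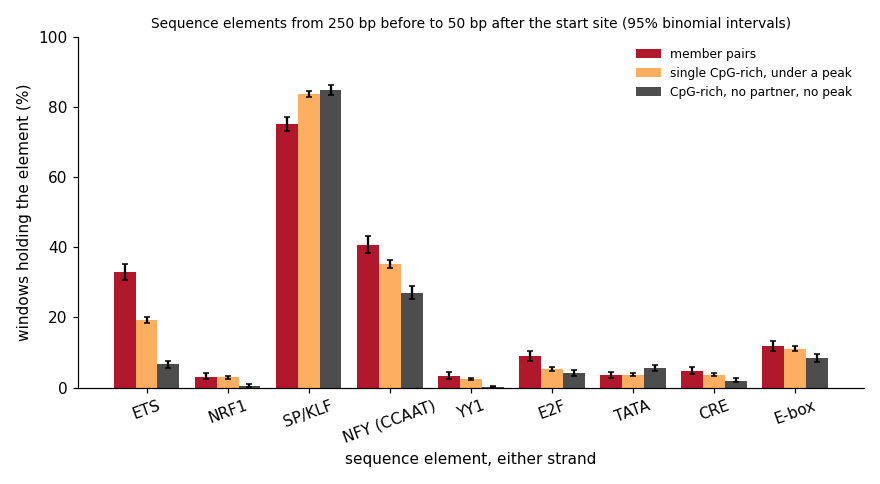
Share of windows (vertical axis, %), from 250 bp before to 50 bp after a start site, that hold each sequence element on either strand, for member pairs, for CpG-rich start sites alone under a peak and for CpG-rich start sites with no partner and no peak. Bars start at 0 and error bars are exact 95% binomial intervals. The ETS element stands at 33.0%, 19.2% and 6.59%, and many member windows also hold the partner's start site.

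Between the start sites themselves, the 894 gaps of at least 20 bp had a median GC content of 65.2%. GGGCGG was present in 71.5% of them, CCAAT in 43.6%, CCGGAAG in 32.7% and TATAAA in 3.91%, and 9.06% held none of the 9 elements, as in the MED22/RPL7A and SKA3/MRPL57 gaps printed above. Longer gaps offer more positions for a match, so these shares are not compared with those of the fixed windows.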

How the data were processed

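LSD1 ChIP-seq and input DNA of PC-3M-luc cells, 1 library each, were sequenced and mapped to hg19 with bowtie 2, per the labels' protocols. MACS 1.41, Bowtie2, hg19 and mm10 are named per the submitters' processing notes. Caller settings, control, threshold and depth are not given in the sources used here. The deposited peak list gives 1 score per peak, from 50 to 3226.07, whose definition no label states. All 20110 peaks fit GRCh37.

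Canonical start sites were the Ensembl canonical transcripts of GENCODE 44 on GRCh37 (19881 of 20162 protein-coding genes). Member pairs, CpG class, element letters and 32-base uniqueness were computed with samtools 1.23.1, pysam 0.24.0, scipy 1.17.1, numba 0.67.0, pandas 2.3.3, numpy 2.4.6, matplotlib 3.10.9 and Python 3.11.15. Reach is the distance from a start site to the peak's end; gene ends are those of GENCODE. Named pairs were the 10 highest and 5 lowest scores, the 5 smallest and 5 largest distances, all textbook pairs, the 5 strongest leans to either side, up to 4 genes per list, and the 5 narrowest and widest peaks; others are said to be chosen after their values were seen. Some genes that this rule names are not reported here. The members and the 14 lists were chosen with earlier results of these data known. Alternatives were thresholds on score, width and distance, other CpG limits and other comparison sets. On simulated data 500 of 500 planted pairs and 100 of 100 planted elements were found, and 0 of 200 pairs with 1 covered site were called.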

Additional observations from a re-analysis of the deposited data

How the results depend on the processing

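No paired analysis was possible because only 1 LSD1 and 1 input library were compared. The main results were recomputed 113 times in all, with 88 values classed as the same, 24 as moved and 1 of the opposite sign. For the number of member pairs, 896, the class of the same is not a measure of counting error. It took in 752 pairs with start sites at most 500 bp apart and 957 with at most 2000 bp. Of 27 other values 25 stayed, and the 2 that moved were the differences in ETS (13.8 to 6.29 points) and E2F (3.62 to 1.56 points) with windows of 100 bp. With only the plus-strand start sites, 2 elements in place of 3 stood apart, and with windows of 100 bp 4 did. The comparisons by type of partner, the count by locus and the ribosomal alternatives were added after seeing the data.

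The change of direction was in the score. The median score of member peaks was 163 above that of peaks over 1 start site. Against CpG-rich ones with a lncRNA partner the difference between the medians was -17.59. Against lncRNA-partnered start sites the difference in coverage was 13.4 points for CpG-rich and 28.5 for CpG-poor sites, and 25.4 points for CpG-rich sites against those with no partner. With a score of at least 100, coverage was 91.5% in pairs and 46.0% in no pair, the CpG-rich difference 26.5 points and the score difference 121.1. At or above the median score, 84.3% of pairs were members, coverage was 84.7% and 38.5%, the CpG-rich difference 30.01 points, the median member score 635.1 and its difference 62.3, the width difference 57.5 bp and the reach 907.5 bp. Without the widest 1% of peaks coverage was 91.6% and 49.0%. With start sites at most 500 bp apart 93.6% were members, coverage in no pair was 50.9%, and 28.7% of midpoints lay between the start sites. At most 2000 bp apart the values were 88.0% members, 91.5% coverage and a CpG-poor difference of 55.7 points. Looser CpG limits gave 54.0 points. The cause of these shifts was not tested, except that higher thresholds leave fewer peaks. Depth was not given, so no value could be set against it.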

Other observations

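In all, 8 peaks with member pairs held more than 3 canonical start sites, and 3 of them lay within a short stretch of chromosome 8. These were the 19011 bp peak over FBXL6, SLC52A2 and TMEM249 (145570106 to 145589116, score 3100), the 13189 bp peak over TMEM276, KIFC2 and ZFTRAF1 (145680693 to 145693881, score 1549.4) and the 35292 bp peak over GPT, LRRC14, LRRC24, MFSD3, RECQL4 and C8orf82 (145720954 to 145756245, score 2966.19). Copy number was not analysed here. Of the others, the peak over KRIT1 and ANKIB1 was 1944 bp wide with a score of 535.36, and the peak over PSENEN and U2AF1L4 was 1570 bp wide with 447.57, so several start sites under 1 peak did not always go with a wide peak.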
